A study of Mus musculus with 4 samples.

Results

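The genes described here encode the enzymes of cholesterol and fatty acid synthesis, with the sterol transporters and the regulators of that pathway. They are 36 genes of the 50600 in the deposited table: 18 of sterol synthesis, 5 of sterol transport, 5 of SREBP control and 8 of fatty acid synthesis. They were taken by symbol from a list drawn up with earlier results of these data known. RNA was sequenced from Py8119, tumour cells of the mammary gland of C57BL/6 mice with a mesenchymal-like phenotype by their labels. The groups were Py8119 cells overexpressing Mtss1 (2 libraries, here Mtss1 1 and 2) and control Py8119 cells (2 libraries titled hygro, here control 1 and 2). Both groups were grown untreated in IMDM with 10% fetal bovine serum. The promoter that drives the introduced Mtss1, the vector of the control and whether either population is a clone are not given in the sources used here. No label states that the paired libraries of each group were grown as separate cultures. The p-values therefore reflect library-to-library spread alone, pooled in large part over genes, and that spread may be technical.

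Cells build cholesterol from acetyl-CoA through the mevalonate pathway, squalene and a chain of sterol intermediates, and they build fatty acids from the same acetyl-CoA through malonyl-CoA. The transcription factors SREBP1 (gene Srebf1) and SREBP2 (gene Srebf2) drive the genes of both routes. Scap escorts the precursors from the endoplasmic reticulum to the Golgi, where they are cut and released, and the Insig proteins hold Scap back when sterols are plentiful. Tumour cells often rely on this synthesis for new membrane, although cells in serum also take up cholesterol carried by lipoproteins.

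The study asked what changes when Mtss1, a scaffold protein that bends membranes and binds actin, is raised in these cells. Mtss1 itself read 118 and 119 CPM in the Mtss1 libraries and 54.5 and 50.5 CPM in the control libraries (log2 fold change 1.16 ± 0.05 (SE), limma adjusted p = 4.8e-15). CPM are reads per 1000000 of the scaled library, and the libraries held between 15594209 and 22081639 recovered reads, with the control libraries the deeper ones. The mesenchymal markers Vim, Zeb1, Fn1, Cdh2, Twist1 and Snai2 were all detected, and they summed to 12540 and 12686 CPM in the Mtss1 libraries and 14436 and 14556 CPM in the control libraries. Of these 6, Twist1 (log2 fold change 0.51) and Zeb1 (0.17) rose, Fn1 (-0.30) and Cdh2 (-0.22) fell, and Vim and Snai2 did not pass the same test. Epcam was at 0 in every library and Cdh1 did not exceed 0.0920 CPM. Markers of hepatocytes (Alb, Apob, Cyp7a1, Ttr) were at 0 throughout. Immune markers summed to between 1.52 and 2.46 CPM and endothelial markers to between 0.368 and 1.19 CPM. Of 6 adipocyte markers, Adipoq and Lep were at 0 and Plin1, Cidec and Pparg did not exceed 0.138 CPM, but Fabp4, a fatty acid carrier gene, read 83.1 and 83.3 CPM in the Mtss1 libraries and 38.6 and 34.9 CPM in the control libraries. The keratin genes Krt8 and Krt18 brought the summed epithelial markers to 601 and 603 CPM with Mtss1 and 849 and 893 CPM in control. The part that such shifts play in the results was not tested, and in bulk RNA fewer cells of a type and less RNA per cell cannot be told apart.

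Upstream sequence is shown for the genes with the largest called changes in sterol synthesis (Hmgcs1, Dhcr7) and SREBP control (Insig1, Scap), because SREBP acts through short elements close to the start of its target genes, often beside NF-Y and Sp1 sites. Each line is the 250 bases before a RefSeq start (GRCm38.p6, plus strand). Capitals mark matches on either strand to TCACNCCAC (core of the sterol regulatory element), CCAAT (NF-Y, ATTGG when reversed) and GGGCGG (Sp1, CCGCCC when reversed). The windows are chr13:119690101-119690350 for Hmgcs1, chr7:143822917-143823166 for Dhcr7, chr5:28071162-28071411 for Insig1 and chr9:110333106-110333355 for Scap.
Hmgcs1: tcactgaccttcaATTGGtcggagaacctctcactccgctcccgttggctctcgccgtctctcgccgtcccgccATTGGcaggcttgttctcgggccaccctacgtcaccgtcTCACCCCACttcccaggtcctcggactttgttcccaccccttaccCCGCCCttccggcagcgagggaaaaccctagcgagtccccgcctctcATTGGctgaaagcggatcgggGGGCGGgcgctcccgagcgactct
Dhcr7: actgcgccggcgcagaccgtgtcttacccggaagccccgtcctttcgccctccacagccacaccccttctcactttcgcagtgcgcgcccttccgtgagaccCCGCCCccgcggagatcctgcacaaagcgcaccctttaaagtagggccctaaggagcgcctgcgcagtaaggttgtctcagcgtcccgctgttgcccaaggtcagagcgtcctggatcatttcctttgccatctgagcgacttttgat
Insig1: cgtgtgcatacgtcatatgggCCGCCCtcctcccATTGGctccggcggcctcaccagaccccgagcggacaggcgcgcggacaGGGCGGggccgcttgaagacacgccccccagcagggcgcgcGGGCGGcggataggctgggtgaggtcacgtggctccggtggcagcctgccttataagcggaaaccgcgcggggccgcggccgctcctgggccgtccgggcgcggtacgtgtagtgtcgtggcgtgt
Scap: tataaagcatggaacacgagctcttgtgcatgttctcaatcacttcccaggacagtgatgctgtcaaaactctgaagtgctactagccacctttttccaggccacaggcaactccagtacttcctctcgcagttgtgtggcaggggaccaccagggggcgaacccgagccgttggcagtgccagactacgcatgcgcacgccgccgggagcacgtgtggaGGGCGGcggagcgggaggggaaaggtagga

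In the Hmgcs1 window the sterol element core begins 137 bases before the start, with NF-Y boxes at 237, 176 and 45 bases and Sp1 boxes at 92 and 24 bases. The Insig1 window holds 1 NF-Y box at 216 bases and Sp1 boxes at 229, 167 and 126 bases. The windows shown for Dhcr7 and Scap hold 1 Sp1 box each, at 148 and 30 bases, and neither of the other motifs. Dhcr7 has 3 RefSeq starts, and a window of another start does hold an NF-Y box. None of the marked matches overlap. RefSeq windows were matched for 27 of the 36 members (where a gene has several starts, the one nearest the annotated principal transcript). The start used lay 22316 bases from that of the principal transcript for Acaca and 453 bases for Pmvk. Neither of these windows held any of the motifs. The sterol element core was found in 1 of the 27, Hmgcs1, and in 1.05% of all 32851 windows of this length. CCAAT was found in 16 of the 27 (59.3%) and in 33.8% of all windows, and GGGCGG in 23 (85.2%) and in 32.7%. With every RefSeq start of a gene counted, CCAAT was found for 20 of the 27 members and for 37.5% of all 27025 genes, so the count depends on the start chosen. No window was matched for Fdps, Fdft1, Sqle, Stard4, Npc1, Abcg1, Scd1, Scd2 and Fads1. These are matches of letters in a short window and do not show binding. Only exact matches were searched, so a window without one is not shown to lack a working element.

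The genes of the pathway split between higher, lower and not called. Among members above 1 CPM in every library, Hmgcs1, Dhcr7 and Insig1 had the largest rises and Scd1 and Scap the largest falls. Abca1 rose more and is counted below, but it passed the filter on low values only through the Mtss1 libraries. Each gene was tested with limma on log2(CPM + 1) at a Benjamini-Hochberg adjusted p under 0.05 over all 12510 genes tested. Of the 36 members 35 were tested, 11 rose, 8 fell and 16 did not pass. The 19 called members are 54.3% of those tested, whereas 66.1% of all genes tested were called (31.9% higher, 34.2% lower). The order of these shares depends on the filter on low values: with no filter 18 of the 36 members and 35.4% of all 22310 genes were called. Values of the 2 groups did not overlap for 25 of the 35 members, against 81.6% of all genes tested. The members' median log2 fold change was -0.01, the same to 2 decimals as that of all genes tested. Their median absolute change was 0.13, against 0.28 over all genes, and only 6 members were called with a fitted change of at least 1.5-fold, while 21.4% of all genes were.

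**Figure D1:**
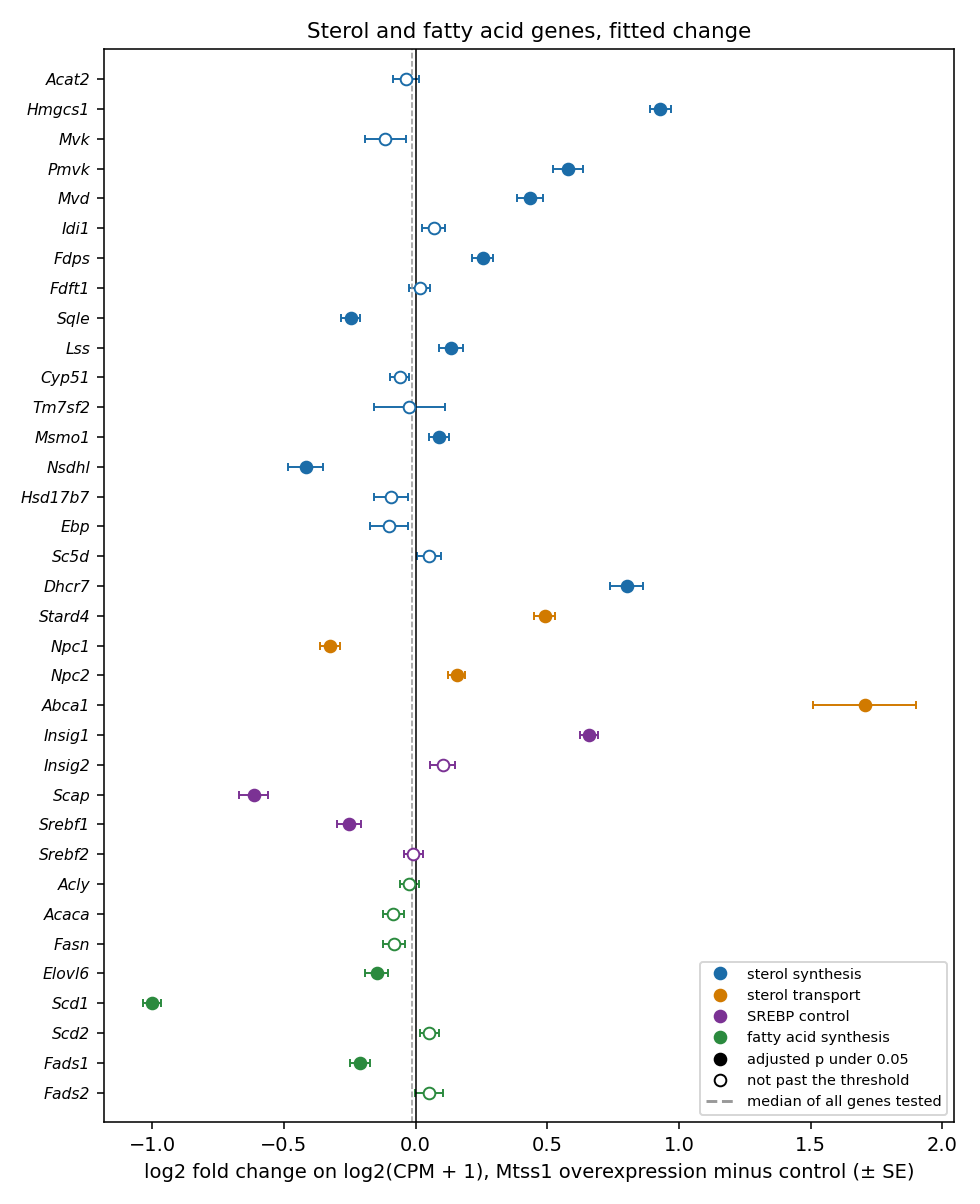
Fitted log2 fold change of the 35 tested members on the log2(CPM + 1) scale, Mtss1 overexpression minus control, with standard errors (n = 2 libraries per group), in pathway order and coloured by role. Hmgcs1, Dhcr7, Pmvk, Insig1 and Abca1 lie farthest to the right and Scd1, Scap and Nsdhl farthest to the left. Open points did not pass an adjusted p of 0.05.

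Within sterol synthesis the largest rises were in Hmgcs1 and Dhcr7, followed by the consecutive steps Pmvk and Mvd. Of the 18 enzymes, 7 rose, 2 fell and 9 did not pass, against 66.1% called among all genes. With no filter 5 rose and 2 fell, against 35.4% called among all genes. Hmgcs1, the cytosolic synthase that makes HMG-CoA on the way to mevalonate, read 417 and 424 CPM in the Mtss1 libraries and 210.2 and 231 CPM in the control libraries. Both Mtss1 values lay well above both control values, a 1.91-fold difference of means (log2 fold change 0.93 ± 0.04 (SE), limma adjusted p = 4.8e-15). The gene lies on chromosome 13 from 119690379 to 119708260 (mm10, plus strand). Dhcr7, a reductase that gives cholesterol itself, read 70.1 and 70.6 CPM in the Mtss1 libraries and 37.2 and 42.8 CPM in the control libraries (0.80 ± 0.06, limma adjusted p = 2.0e-10). It too showed no overlap, like 81.6% of all genes tested, and its means differed 1.76-fold (chromosome 7, 143823145 to 143848410, mm10).

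Pmvk and Mvd carry mevalonate phosphate to isopentenyl diphosphate. Pmvk, the phosphomevalonate kinase, read 66.9 and 65.8 CPM in the Mtss1 libraries and 42.7 and 45.4 CPM in the control libraries (log2 fold change 0.58 ± 0.06, limma adjusted p = 7.2e-09). Mvd, the decarboxylase that follows it, read 87.4 and 84.6 CPM with Mtss1 and 63.0 and 63.7 CPM in control (0.43 ± 0.05, limma adjusted p = 7.6e-08). The kinase just before them, Mvk, read 28.9 and 26.4 CPM with Mtss1 and 29.1 and 30.9 CPM in control and did not pass (-0.12 ± 0.08, limma adjusted p = 0.197). Fdps, which makes farnesyl diphosphate, the branch point to sterols and to protein prenylation, read 458 and 455 CPM with Mtss1 and 364 and 401 CPM in control (0.25 ± 0.04). Those 2 groups did not overlap either, like those of 81.6% of all genes tested. Smaller rises were called for Lss, the cyclase that makes lanosterol, with 145 and 155 CPM in the Mtss1 libraries and 131 and 142 CPM in the control libraries (0.13 ± 0.05, limma adjusted p = 0.0144). Msmo1, a methyl sterol oxidase, read 254 and 274 CPM with Mtss1 and 247 and 249 CPM in control (0.09 ± 0.04, limma adjusted p = 0.0497). The calls of Lss and Msmo1 depend on single libraries. Lss was not called without control 1 (limma adjusted p = 0.228), without Mtss1 2 (0.182) or with no filter (0.109), and Msmo1 lost its call without control 1, control 2 or Mtss1 2, with no filter and with a pseudocount of 0.1, where its limma adjusted p ran from 0.0555 to 0.509.

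The falls in sterol synthesis were in Nsdhl and Sqle. Nsdhl, a dehydrogenase that helps remove methyl groups from the sterol ring, read 42.2 and 40.8 CPM in the Mtss1 libraries and 51.9 and 59.9 CPM in the control libraries (log2 fold change -0.42 ± 0.07, limma adjusted p = 8.6e-06). Sqle, the squalene epoxidase and a slow step of the pathway, read 223 and 220.3 CPM with Mtss1 and 257 and 270.1 CPM in control (-0.25 ± 0.04, limma adjusted p = 4.5e-06). Neither gene showed overlap between the groups, as was the case for 81.6% of all genes tested. The 9 members that did not pass were Acat2 (the cytosolic thiolase at the entry), Mvk, Idi1, Fdft1 (squalene synthase), Cyp51 (the lanosterol demethylase), Tm7sf2, Hsd17b7, Ebp and Sc5d. Their log2 fold changes lay between -0.12 and 0.07. Idi1, the isopentenyl diphosphate isomerase, was called higher without control 2 (limma adjusted p = 0.00731) and with columns scaled to a common sum (0.0357). The sum over the 18 genes was 2669 and 2725 CPM in the Mtss1 libraries and 2311 and 2451 CPM in the control libraries, with Hmgcs1 the member that added most to the difference.

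Some of these genes share sequence with others, and for some the recovered reads were not whole, as when counting divides reads between genes. Fdft1 overlaps Ctsb on the opposite strand over 774 exonic bases, 18.3% of its exon length, and Ctsb, a lysosomal protease gene, read 1183 and 1188 CPM with Mtss1 and 1265 and 1243 CPM in control. Of the 75-base stretches in Acat2 transcripts, 33.9% also occur in another gene's transcripts, all of them in Acat3, which did not exceed 1.94 CPM. The same share was 23.5% for Fdps, 23.6% for Idi1 and 26.8% for Acaca. For Hmgcs1 it was 9.79%, for Scap 8.26%, for Scd1 3.15% and for Insig1 0.762%, and for Pmvk, Mvd, Nsdhl and Sqle no stretch was shared. Scap also overlaps another gene on the opposite strand over 13.2% of its exon length. In Mtss1 1 the recovered reads were not whole for Acat2 (1979.72), Idi1 (3226.76), Acaca (3095.38) and Scap (761.5). They were whole there for Hmgcs1 (6618) and Insig1 (5431).

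**Figure D2:**
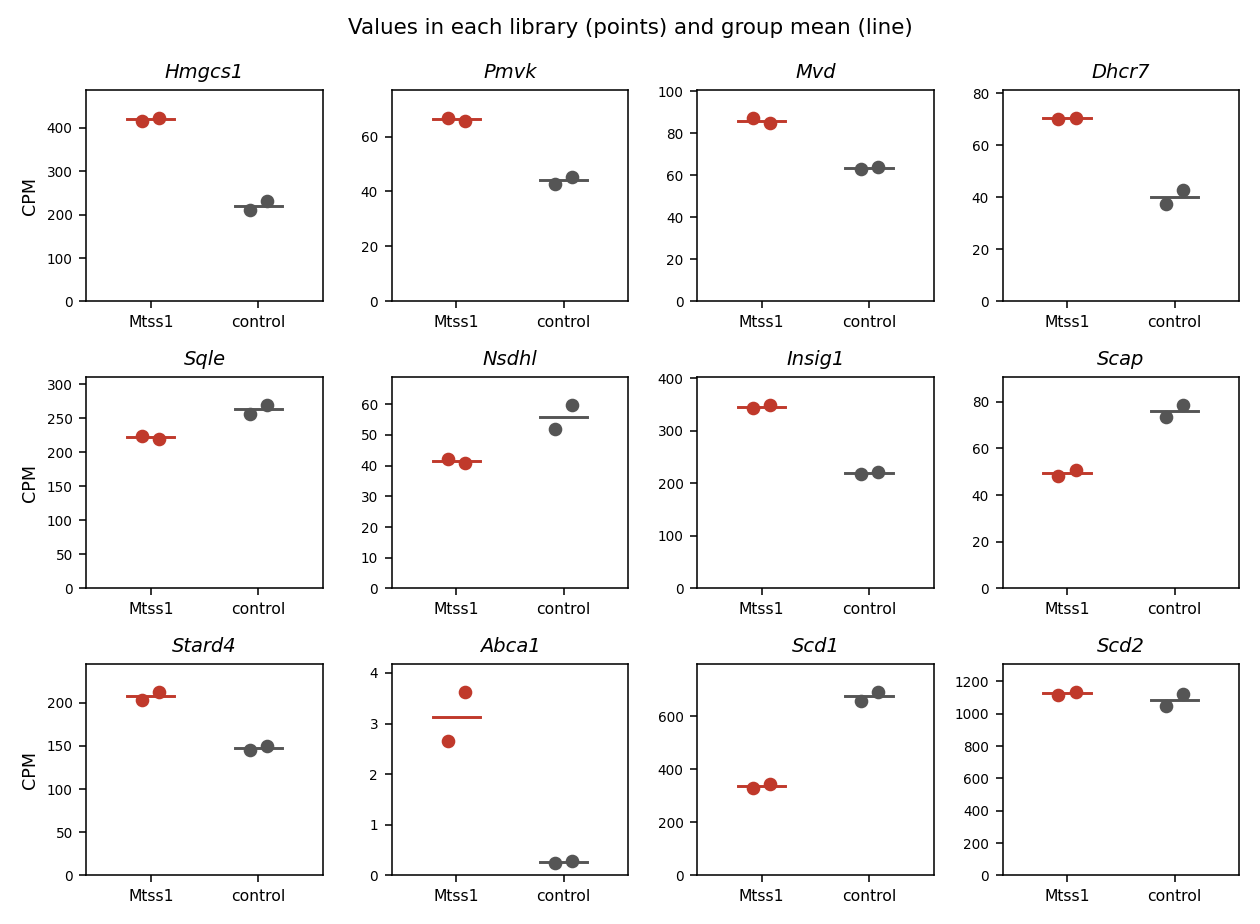
CPM of 12 members in each library (points) with the group mean (line), Mtss1 overexpression on the left and control on the right of each panel, linear axes from 0. For Hmgcs1, Pmvk, Mvd, Dhcr7, Insig1, Stard4 and Abca1 both Mtss1 points lie above both control points, for Sqle, Nsdhl, Scap and Scd1 both lie below, and for Scd2 the groups overlap.

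Among the genes of SREBP control, the inhibitor rose and the escort fell. Insig1, which retains Scap in the endoplasmic reticulum and is itself a target of SREBP, read 342 and 349.6 CPM in the Mtss1 libraries and 217 and 221 CPM in the control libraries. The groups were far apart relative to their spread (log2 fold change 0.66 ± 0.04, limma adjusted p = 2.4e-13, chromosome 5 from 28071363 to 28078662, mm10). Scap read 48.0 and 50.6 CPM with Mtss1 and 73.4 and 78.8 CPM in control, a fall of similar size (-0.62 ± 0.06, limma adjusted p = 2.0e-09, chromosome 9 from 110333288 to 110384950, mm10). Srebf1, whose SREBP1c product favours fatty acid genes, also fell, with 125 and 118 CPM in the Mtss1 libraries and 141 and 149.98 CPM in the control libraries (-0.25 ± 0.04, limma adjusted p = 3.4e-05).

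Srebf2, which encodes the factor that favours sterol genes, read 625 and 596 CPM with Mtss1 and 600.3 and 628 CPM in control. Its groups overlapped (log2 fold change -0.01 ± 0.04, limma adjusted p = 0.838), and the sign changed under 2 other scalings. Insig2, the second Insig gene, read 88.6 and 86.9 CPM with Mtss1 and 82.9 and 80.5 CPM in control. It did not pass (0.10 ± 0.05, limma adjusted p = 0.0607), but was called higher with median-of-ratios scaling (limma adjusted p = 0.0379) and with columns scaled to a common sum (0.0131). With CPM divided by the length of the principal transcript, Insig1 made up 79.4% and 80.1% of the summed Insig level in the Mtss1 libraries and 72.4% and 73.3% in the control libraries. Srebf1 made up 19.2% and 19.0% of the summed Srebf level with Mtss1 and 21.7% and 22% in control. RNA levels of these genes do not show how much SREBP was cut and active.

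The 4 tested genes of sterol transport were all called, 3 higher and 1 lower, where 66.1% of all genes were called, and 1 of them was tested only because of its level in the Mtss1 libraries. Abca1, which exports cholesterol to lipoproteins outside the cell, was close to the detection limit in control: it read 2.65 and 3.63 CPM in the Mtss1 libraries and 0.245 and 0.276 CPM in the control libraries, from 42 and 61 reads against 5 and 6 reads. The means differed 12.05-fold, and the fitted log2 fold change was 1.71 ± 0.19 (limma adjusted p = 7.7e-08). Abca1 passed the filter on low values only through the Mtss1 libraries, so among tested genes it had to differ. Its fitted change ran from 0.63 with a pseudocount of 5 to 3.47 with limma-voom on recovered expected counts. Abcg1, the other exporter, was below the filter: 7 and 5 reads were recovered in the Mtss1 libraries and 0 in each control library. Its 0.369 CPM with Mtss1 was 2.59 times a floor set at 3 reads per control library. That ratio leaves out the counting error of so few reads.

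Inside the cell, the carrier Stard4, which moves sterol between membranes, read 203 and 213 CPM in the Mtss1 libraries and 145 and 150.3 CPM in the control libraries (log2 fold change 0.49 ± 0.04, limma adjusted p = 3.7e-10). Npc1 and Npc2 encode the membrane and the soluble protein that hand cholesterol out of the lysosome, and they moved in opposite directions. Npc1 read 173 CPM in both Mtss1 libraries and 222 and 211 CPM in the control libraries (-0.33 ± 0.04, limma adjusted p = 1.5e-07). Npc2 read 917 and 933 CPM with Mtss1 and 827 and 833 CPM in control (0.16 ± 0.03, limma adjusted p = 2.0e-04). None of these 3 genes had overlapping groups, which was also so for 81.6% of all genes tested.

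Fatty acid synthesis held the steepest fall of all members, in 1 gene. Of 8 members 3 fell, none rose and 5 did not pass, a called share of 37.5% against 66.1% for all genes. That gap depends on the filter: with no filter again 3 of the 8 fell and none rose, against 35.4% of all genes called. Scd1, a stearoyl-CoA desaturase that turns saturated into monounsaturated fatty acids, read 331 and 344 CPM in the Mtss1 libraries and 659 and 694 CPM in the control libraries. The mean with Mtss1 was 0.499 times the control mean (log2 fold change -1.001 ± 0.04, limma adjusted p = 1.5e-16), and the groups were widely separated. Scd2, the neighbouring desaturase gene, read 1116 and 1137 CPM with Mtss1 and 1050.0 and 1125 CPM in control and did not pass (0.05 ± 0.04, limma adjusted p = 0.206), but was called higher without control 2 (limma adjusted p = 0.0101) and with columns scaled to a common sum (0.0241). Per transcript length, Scd1 supplied 25.1% and 25.4% of the summed level of both genes in the Mtss1 libraries and 41.5% and 41.0% in the control libraries. Scd1 lies on chromosome 19 from 44394455 to 44407879 and Scd2 from 44293674 to 44306864 (mm10). They share few 75-base stretches, 1.45% of those in Scd2 transcripts.

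None of the 3 genes of the main chain passed the test. Acly, which makes cytosolic acetyl-CoA from citrate, read 429 and 439.5 CPM with Mtss1 and 427 and 456 CPM in control (log2 fold change -0.02 ± 0.04, limma adjusted p = 0.577). Acaca, the acetyl-CoA carboxylase, read 195 and 209 CPM with Mtss1 and 213 and 215 CPM in control (-0.08 ± 0.04, limma adjusted p = 0.0634). Fasn, the fatty acid synthase, read 748 and 768 CPM with Mtss1 and 755 and 852 CPM in control (-0.08 ± 0.04, limma adjusted p = 0.0954). The calls for Acaca and Fasn depend on single libraries. Acaca was called lower without Mtss1 2 (limma adjusted p = 0.0154), and Fasn was called lower without control 1 (2.9e-05) and changed sign without control 2.

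Of the genes that lengthen and desaturate fatty acids, Fads1, the desaturase late in the route to arachidonic acid, read 208 and 204 CPM in the Mtss1 libraries and 239.8 and 237 CPM in the control libraries (log2 fold change -0.21 ± 0.04, limma adjusted p = 2.6e-05). Elovl6, which extends palmitate, read 103 CPM in both Mtss1 libraries and 111 and 117 CPM in the control libraries (-0.15 ± 0.04, limma adjusted p = 0.00567), and was not called without control 2 (limma adjusted p = 0.0960). Fads2, the desaturase at the entry of the polyunsaturated route, did not pass (0.05 ± 0.05). The 8 genes summed to 3212 and 3282 CPM with Mtss1 and 3528 and 3777 CPM in control, and Scd1 was the member with the largest part of that difference.

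Levels of different members can be compared only per transcript length. On the scale of CPM per kilobase of the principal transcript, Fdps was the highest member in both groups, at 330.0 with Mtss1 and 277 in control, followed by Npc2 (280.4 and 252) and Scd2 (207 and 199). Hmgcs1 ranked 6 of 36 with Mtss1 and 13 in control, at 121 and 63.7. Scd1 ranked 11 with Mtss1 and 4 in control, at 69.8 and 140. Among the enzymes Tm7sf2, a sterol reductase whose step can also be carried out by Lbr, was lowest, at 5.23 with Mtss1 and 5.34 in control, and only Abca1 and Abcg1 lay below it. The ranking rests on 1 transcript per gene, and the transcripts these cells use were not measured in the gene table.

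Under the main filter, other genes of the pathway were called at a rate close to that of all genes. Among 78 such genes in the deposited values, 69 were tested. Of these 23 rose, 21 fell and 25 did not pass, which is 63.8% called against 66.1% for all genes. With no filter 22 of the 78 rose and 20 fell, where 35.4% of all 22310 genes were called. The shares given for each list are those of the main filter and depend on it too. Of 11 tested genes that process SREBP or degrade sterol-regulated proteins, 6 fell, 2 rose and 3 did not pass, which is 72.7% called against the same 66.1% (median log2 fold change -0.17). The protease gene Mbtps2, which makes the final cut of SREBP, read 44.0 and 48.3 CPM in the Mtss1 libraries and 67.3 and 64.6 CPM in the control libraries (-0.51 ± 0.06, limma adjusted p = 1.1e-07). The membrane ubiquitin ligase gene Rnf139 (-0.37 ± 0.06) and Erlin1 (-0.30 ± 0.04) fell too, and the ubiquitin-conjugating gene Ube2g2 (0.33 ± 0.05) and the ligase gene Syvn1 (0.15 ± 0.05) rose. Mbtps1, the protease gene for the earlier cut of SREBP, named after its values were seen, fell as well (-0.17 ± 0.04, limma adjusted p = 3.2e-04).

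Of 10 tested genes of the isoprenoid branches and sterol esterification, 3 fell, none rose and 7 did not pass, a called share of 30.0% against 66.1% for all genes. Soat1, which esterifies cholesterol for storage in droplets, read 79.2 and 81.8 CPM in the Mtss1 libraries and 148 and 154 CPM in the control libraries (log2 fold change -0.90 ± 0.04, limma adjusted p = 4.1e-14). Pdss1, which starts the side chain of coenzyme Q, read 4.60 and 4.76 CPM with Mtss1 and 9.41 and 8.97 CPM in control (-0.84 ± 0.13), and Lbr fell by 0.15 (SE 0.05). The prenyltransferase genes Fnta, Fntb and Pggt1b and the geranylgeranyl diphosphate synthase gene Ggps1 did not pass.

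Of 14 tested genes of sterol uptake and trafficking, 5 rose, 5 fell and 4 did not pass, and the called share of 71.4% was near the 66.1% of all genes. Scarb1, the receptor that takes cholesterol from high-density lipoprotein, read 138 and 139.7 CPM in the Mtss1 libraries and 68.0 and 69.9 CPM in the control libraries (log2 fold change 1.00 ± 0.04, limma adjusted p = 8.8e-15). Vldlr, a lipoprotein receptor, read 119.7 and 123 CPM with Mtss1 and 217 and 223 CPM in control (-0.85 ± 0.04, limma adjusted p = 1.6e-14). Osbpl2, an oxysterol-binding family gene, fell by 0.44 (SE 0.06). The Gramd1 genes encode carriers of cholesterol from the plasma membrane to the endoplasmic reticulum, and they moved apart: Gramd1a rose (0.50 ± 0.04) and Gramd1b fell (-1.39 ± 0.10). Gramd1c read 2.46 and 2.50 CPM with Mtss1 and 0.0490 and 0.0920 CPM in control (1.70 ± 0.20), and like Abca1 it passed the filter only through the Mtss1 libraries. The liver X receptor genes encode sterol sensors known to activate Abca1, and are named after their values were seen. Nr1h2 read 81.9 and 79.4 CPM with Mtss1 and 77.5 and 73.4 CPM in control (not called, limma adjusted p = 0.0994), and Nr1h3 did not exceed 0.252 CPM.

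In the list on fatty acid supply, elongation and glycerolipid assembly, 12 of 24 tested genes rose, 7 fell and 5 did not pass, a called share of 79.2% against 66.1% for all genes. The desaturase-family gene Fads3 read 25.9 and 30.5 CPM in the Mtss1 libraries and 0.833 and 0.414 CPM in the control libraries (log2 fold change 4.18 ± 0.15, limma adjusted p = 2.3e-16). Like Gramd1c, Fads3 passed the filter only through the Mtss1 libraries. Elovl4, which makes very long chains, read 9.39 and 8.45 CPM with Mtss1 and 1.37 and 1.33 CPM in control (2.07 ± 0.15). Acacb, the mitochondrial carboxylase gene, read 5.36 and 4.40 CPM with Mtss1 and 1.32 and 1.24 CPM in control (1.36 ± 0.17). Chosen for mention only once their values were known, 3 further genes of this list were higher: Acss2, which makes acetyl-CoA from acetate (50.9 and 53.7 CPM with Mtss1, 23.5 and 21.1 CPM in control, 1.20 ± 0.07), the citrate carrier Slc25a1 (0.40 ± 0.05) and the malic enzyme Me1 (0.45 ± 0.05). The largest falls in this list were in Acsl5 (-0.56 ± 0.04), an acyl-CoA synthetase, Hsd17b12 (-0.50 ± 0.04), a reductase of the elongation cycle, and Elovl1 (-0.36 ± 0.06).

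**Figure D3:**
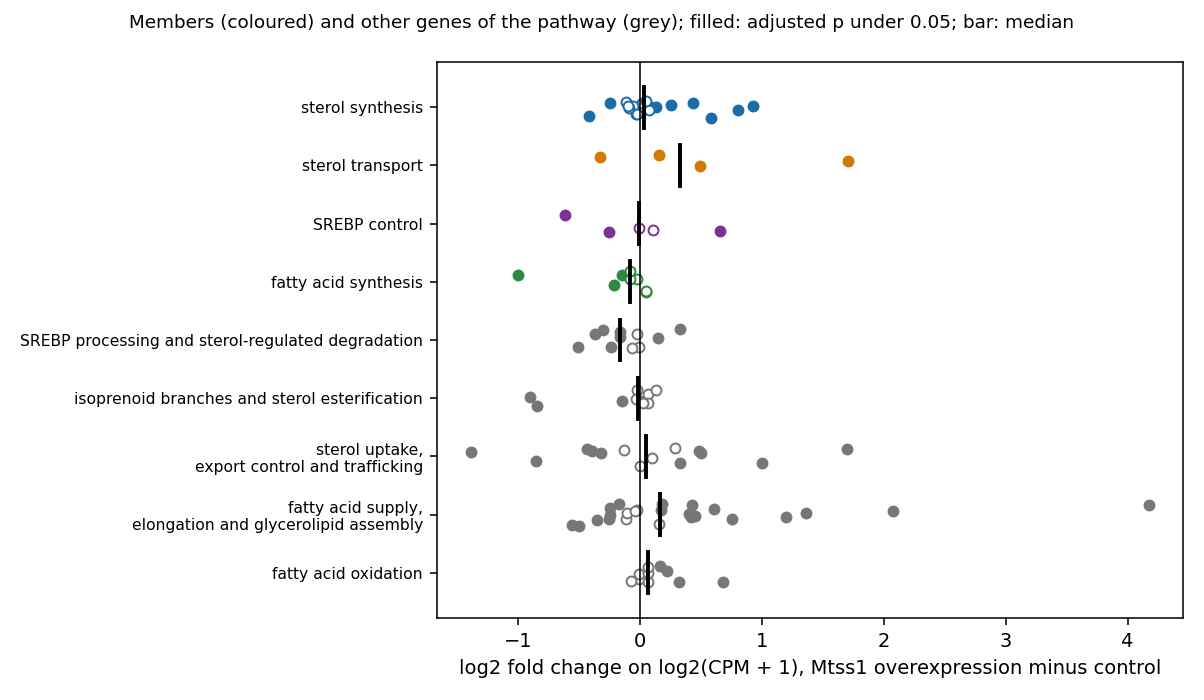
Fitted log2 fold change (log2(CPM + 1) scale, Mtss1 overexpression minus control) of each tested gene by list, members in colour and other pathway genes in grey, with the list median as a bar and open points for genes that were not called. The fatty acid synthesis members lie between -1.001 and 0.05, while the list on fatty acid supply, elongation and glycerolipid assembly reaches 4.18 at Fads3.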

How the data were processed

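Gene expression was measured in 4 libraries of Py8119 cells, 2 with Mtss1 overexpression and 2 control, by paired-end sequencing (150 bases) of total RNA. STAR, RSEM, FastQC 0.11.2 and genome build mm10 are listed, without roles or settings, per the submitters' processing notes. The values deposited by the authors are CPM, an assignment made from the values. Most nonzero entries of each column are whole multiples of 1 step, taken as the CPM of 1 read. The columns sum to between 982877 and 1016225. How they were scaled was not given in the sources used here. Dividing by that step gave values whole within 0.005 read for 79.6% to 80.5% of nonzero entries, as estimated counts would be, so a count test was not the main test.

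Genes that reached 1 CPM in 2 or more libraries were tested with limma 3.58.1 in R 4.3.3 on log2(CPM + 1) with a mean-dependent prior, adjusted by Benjamini-Hochberg over all genes tested, with a threshold of 0.05. Each gene had 2 residual degrees of freedom, and the prior from the trend over all tested genes had 19.96. Standard errors and p-values thus rest mostly on that trend and less on a gene's own libraries. Fold changes on this scale understate low genes. Libraries of a group differed by more than counting noise (median chi-square 1.78 to 2.04 times the Poisson value) and were kept as 2 replicates. The main limma fit, and no other step, was also tested on simulated data with known changes. Far fewer genes changed there than were called in these data. Coordinates, transcript lengths and shared stretches came from GENCODE M21 on the same build, which matched 50376 of 50600 identifiers, and upstream sequence came from RefSeq (GRCm38.p6).

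The members and lists were chosen with earlier results of these data known. Values are printed for called members, first the 3 largest changes of each role and those against its majority, and for up to 3 genes per direction in each other list. Outside this rule, values are also printed for the uncalled members Mvk, Srebf2, Insig2, Scd2, Acly, Acaca and Fasn. In the other lists, Mbtps1, Nr1h2, Nr1h3, Acss2, Slc25a1, Me1, Mlycd, Acadm and Ppara go beyond it. The alternatives were limma-voom on recovered expected counts, median-of-ratios scaling, columns scaled to a common sum, no filter, 1 CPM in all libraries, pseudocounts of 0.1 and 5, an adjusted p of 0.01, the replicate number as a block, and leaving out each library in turn.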

Additional observations from a re-analysis of the deposited data

How the results depend on the processing

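Of the 19 called members, 16 kept their direction and call under every alternative that could be fitted (9 for Abca1, 12 for the others), and Lss, Msmo1 and Elovl6 lost it in at least 1. Abca1 was not tested without Mtss1 1, without Mtss1 2 or with 1 CPM required in all libraries, because it then missed the filter. Of the 16 members that did not pass, 5 (Idi1, Insig2, Acaca, Fasn and Scd2) were called in at least 1 alternative. Counts of called SREBP control genes moved to 2 higher with median-of-ratios scaling and with columns scaled to a common sum, against 1. With columns scaled to a common sum 1 fatty acid synthesis gene was higher, against 0, and leaving out single libraries gave 0 to 1. Leaving out libraries gave 3317 to 3634 higher and 3621 to 3971 lower genes over the whole table, against 3991 and 4282.

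Signs turned for members whose fitted change was close to 0. With columns scaled to a common sum the log2 fold changes became 0.0011 for Acat2, 0.0097 for Tm7sf2, 0.0285 for Srebf2 and 0.0132 for Acly, and with median-of-ratios scaling that of Srebf2 became 0.0027. Over the fits that left out 1 library the log2 fold change ran from -0.11 to 0.04 for Acat2, -0.00698 to 0.14 for Idi1, -0.0206 to 0.0521 for Fdft1, -0.15 to 0.10 for Tm7sf2, -0.0437 to 0.0258 for Srebf2, -0.0725 to 0.0239 for Acly, -0.17 to 0.00668 for Fasn and -0.0168 to 0.12 for Fads2. The cause was not tested. The median of all genes was -0.0015 with median-of-ratios scaling and 0.02 with the common sum, against -0.01.

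The labels number the libraries 1 and 2 in both groups, without saying that a number marks a shared culture or day. Same-numbered libraries did not deviate together (correlation -0.02 across 12510 genes). With the replicate block 4040 genes were higher and 4337 lower, and among the members the block changed the call of Fasn alone (log2 fold change -0.08, limma adjusted p = 0.0396). With 2 libraries per group and a lone library left in an arm, that library is assumed to vary like the other group. A floor of 3 reads was 0.138 to 0.189 CPM, so genes near it, such as Abca1 and Abcg1 in control, carry large counting error.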

Other observations

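Genes of fatty acid oxidation, the route that consumes what synthesis makes, were higher or did not pass. Of 12 listed genes 10 were tested, 4 rose, none fell and 6 did not pass, a called share of 40.0% against 66.1% for all genes. Cpt1a, the carrier step that admits fatty acids to mitochondria, read 68.5 and 69.9 CPM in the Mtss1 libraries and 43.1 and 42.6 CPM in the control libraries (log2 fold change 0.68 ± 0.06, limma adjusted p = 3.4e-10). The acyl-CoA dehydrogenase genes Acadvl (0.32 ± 0.05), Acadl (0.22 ± 0.04) and Acadm (0.17 ± 0.05) rose by less. Mlycd, whose product removes malonyl-CoA, the inhibitor of Cpt1a, was counted in the supply list and named after its values were seen. It read 21.9 and 20.7 CPM with Mtss1 and 14.7 and 12.6 CPM in control (0.61 ± 0.10). Acacb of the same list, whose product makes malonyl-CoA, rose more (1.36 ± 0.17). Ppara did not exceed 0.196 CPM, and Ppard did not pass the test.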
